A study of Mus musculus with 12 samples.

Results

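The genes described here drive the cell division cycle or copy the genome, and 44 of them were chosen by name. Every array feature annotated with one of these symbols was taken, which gave values for 43 of the 44 among 19087 named genes. Ccnb1 was not analysed here. The 43 genes fell into 9 G1 cyclins and kinases, 4 inhibitors of cyclin-dependent kinases (CDK), 11 genes of S phase and 19 genes of G2 and mitosis. They were read by 72 features, with 1 feature for 22 genes, 2 for 13 and 3 for 8.

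A cell commits to division in G1, when D-type cyclins switch on the kinases Cdk4 and Cdk6 and E2F transcription factors are released from the retinoblastoma protein. Cyclin E with Cdk2 then starts S phase, in which the Mcm helicase opens the DNA, and cyclin A, cyclin B and Cdk1 bring the cell into mitosis. Oligodendrocyte precursors divide until they leave the cycle and differentiate, and the inhibitor p27 (Cdkn1b) is known for its part in that exit.

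The cells were Oli-neu, an oligodendroglial line of the mouse that differentiates in culture, and all cells used for the arrays, untreated ones included, stably expressed PLP-EGFP. One experiment set cells kept for 16 h with conditioned neuronal medium, taken from cultures of primary neurons, against untreated cells. The other set cells kept for 16 h with Y27632, a small-molecule kinase inhibitor, against untreated cells. Each experiment had 6 two-colour arrays, each holding treated and untreated RNA, with the treated RNA in Cy3 on 3 arrays and in Cy5 on 3. The channel labels write "neuron treatment" for the medium and Y27631 for the inhibitor, and the names used here are those of the paper. No source used here says that the arrays came from separate cultures, and the submitters call them technical replicates, so the p-values measure a spread between arrays that may be technical. Nor is it stated whether both experiments shared untreated RNA.

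Each value is a standardized log ratio, in units of the standard deviation of all values on its array (SD units). It is not a fold change, since the base of the logarithm and the scaling are not stated. Signs were reversed to read treated over untreated, a direction that rests on Opalin (Tmem10), which the study names as up-regulated. As deposited, its values were negative at both features on 6 of 6 medium arrays, and on 6 of 6 and 5 of 6 Y27632 arrays. A ratio gives no level, so the cell type could not be checked through the level of its markers. Features of 1 gene were averaged, errors are SDs over 6 arrays, and every adjusted p is from limma with a dye term, with the Benjamini-Hochberg adjustment over all 19087 genes or 41230 features. A gene rose or fell if its adjusted p was below 0.05.

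With conditioned medium, 9 of 19 genes of G2 and mitosis rose, 0 fell and 10 did not pass. Of the 9 G1 cyclins and kinases, 5 fell and 2 rose, where 27.6% of all genes tested rose and 36.7% fell. The 5 include Ccnd2, whose features disagreed in direction, and the 2, Ccnd3 and Ccne2, changed sign with the dye. Mki67, Cenpe, Kif11 and Top2a rose by more than 1 SD unit, and Ccnd1, Cdk4, Cdk6 and Cdkn1c fell by more than 1. Kif11 was at 0.8 when the median of its features was taken. With Y27632, 5 of the 19 genes of G2 and mitosis rose and 4 fell, and 3 of the 9 G1 genes rose and 3 fell, where 20.5% of all genes rose and 19.5% fell. Cdk6 fell with both treatments and was below 0 at all 3 of its features on all 12 arrays.

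In numbers, 16 of 43 genes (37.2%) rose with conditioned medium, beside 27.6% of all genes tested, and 8 (18.6%) fell, beside 36.7%. With a change of at least 1 SD unit as well, 4 rose and 4 fell, beside 4.95% and 5.29% of all genes. A stricter count, added after the data were seen, asked for the same sign on all 6 arrays and held 7 that rose and 7 that fell, beside 16.1% and 17.8%. With Y27632, 10 of 43 (23.3%) rose, beside 20.5% of all genes, and 12 (27.9%) fell, beside 19.5%. At 1 SD unit or more these were 0 and 2, beside 3.19% and 2.68%, and with the same sign on all 6 arrays 4 and 5, beside 10.2% and 9.23%. The median over the 43 genes was 0.11 SD units with conditioned medium and -0.10 with Y27632, where the medians over all genes were -0.08 and -0.01.

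**Figure D1:**
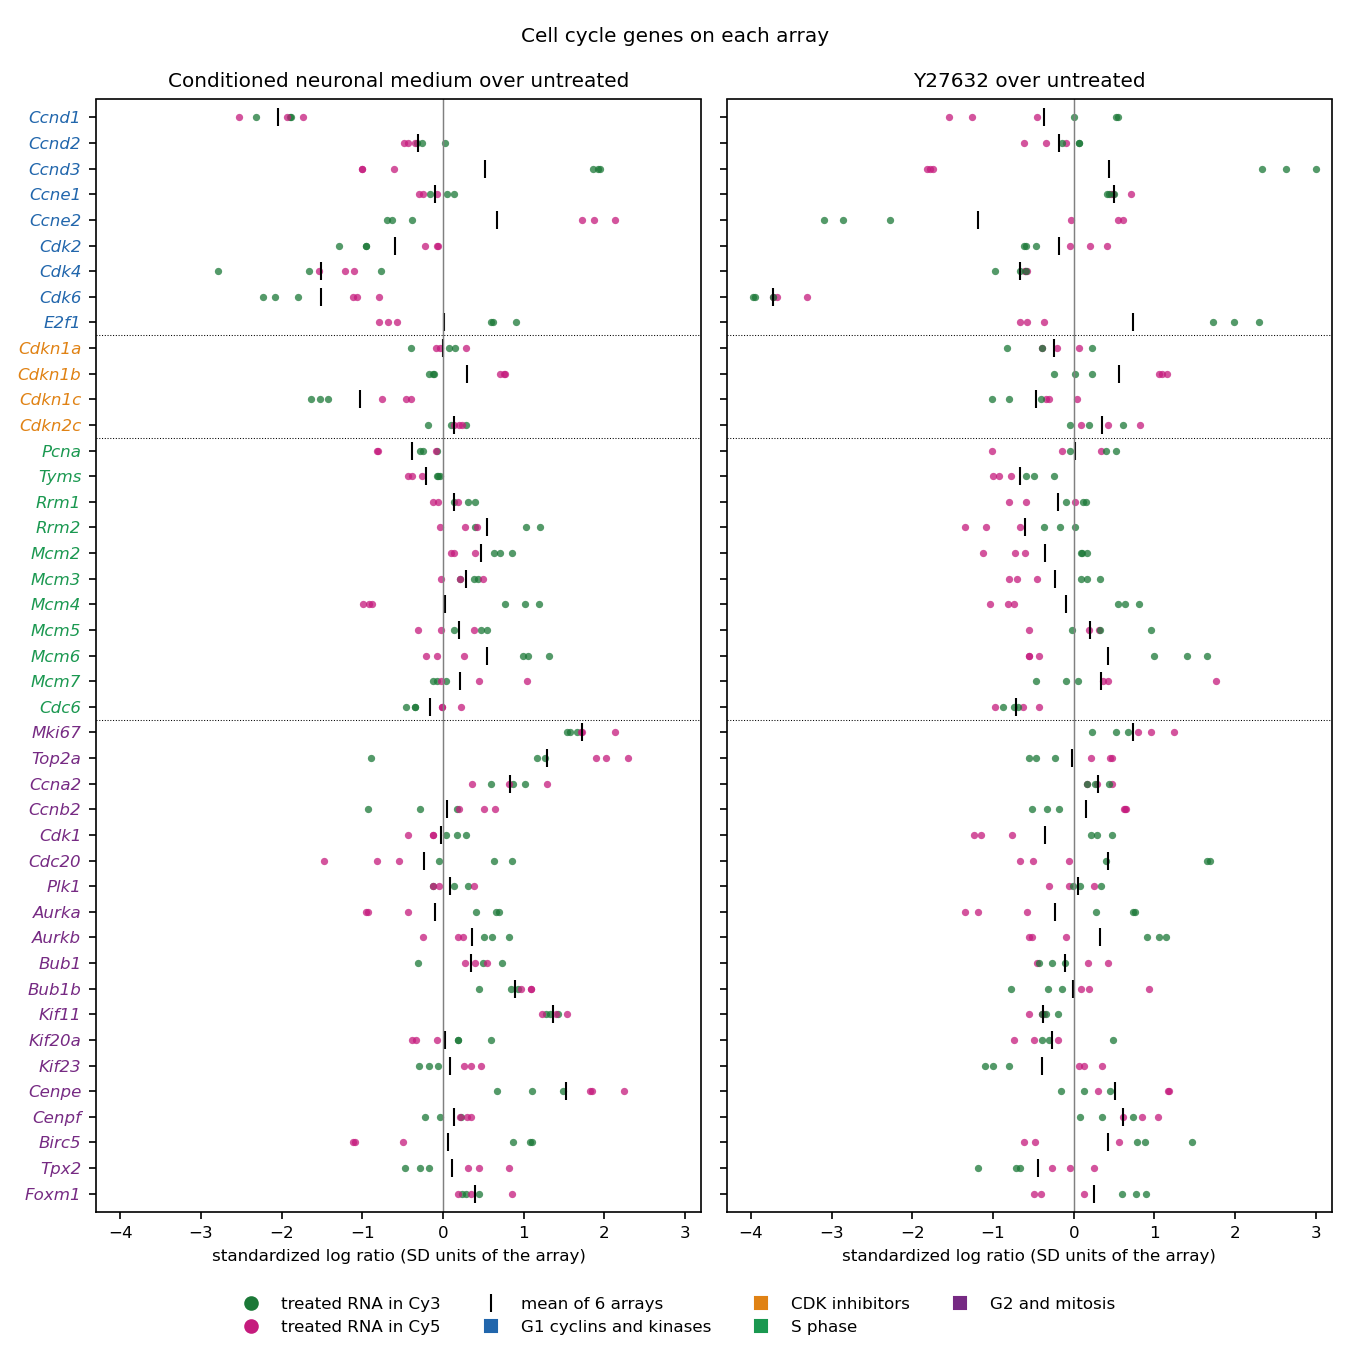
Value of each of the 43 genes on each array (x axis, standardized log ratio in SD units of the array), treated over untreated, with conditioned medium in the left panel and Y27632 in the right; points are arrays, coloured by the dye of the treated RNA, and the tick is the mean of 6. Cdk6 lies left of 0 on every array of both panels, Mki67 right of 0 on every array, and Ccnd3 splits by dye in both.

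The clearest fall was that of Cdk6, which phosphorylates the retinoblastoma protein together with D-type cyclins. With conditioned medium its lowest, median and highest arrays were at -2.23, -1.45 and -0.79 SD units, a mean of -1.51 ± 0.60 (adjusted p = 8.6e-07). With Y27632 they were at -3.97, -3.73 and -3.31, a mean of -3.73 ± 0.24 (adjusted p = 1.3e-06). The ranges of both treatments lay apart and below 0, and the means of its 3 features were -1.59, -1.52 and -1.43 with conditioned medium and -3.85, -3.21 and -4.13 with Y27632. Cdk4, its close relative with the same partners and substrate, was read by 1 feature. Its values ran over -2.79, -1.38 and -0.77 (lowest, median and highest) with conditioned medium, a mean of -1.51 ± 0.70 (adjusted p = 0.00027). With Y27632 they ran over -0.98, -0.60 and -0.58, a mean of -0.67 ± 0.16 (adjusted p = 0.00061). All 12 arrays of Cdk4 were below 0 too, and 5 of the 6 Y27632 arrays lay within -0.67 to -0.58.

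Ccnd1, cyclin D1, a partner of both kinases, fell with conditioned medium. Its lowest, median and highest arrays there were at -2.53, -1.91 and -1.74, a mean of -2.05 ± 0.31 (adjusted p = 9.6e-07), and both dye orientations gave the same mean, -2.03 in Cy3 and -2.07 in Cy5. With Y27632 it did not pass (-0.37 ± 0.89, adjusted p = 0.087), and its arrays averaged -1.09 ± 0.56 with the treated RNA in Cy5 and 0.35 ± 0.31 with it in Cy3 (n = 3 each). The Y27632 arrays of this gene thus lay apart by dye. Ccnd3, cyclin D3, shows that split at its largest. It averaged 1.91 in Cy3 and -0.87 in Cy5 with conditioned medium, and 2.65 in Cy3 and -1.78 in Cy5 with Y27632. The fits passed for Ccnd3 in both experiments (0.52, adjusted p = 0.00033, and 0.44, adjusted p = 0.011), although 3 of 6 arrays had the opposite sign in each.

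Ccnd2, cyclin D2, could not be summed into 1 value. Its 3 features were at -2.98 ± 0.43, 0.56 ± 0.43 and 1.5 ± 0.48 with conditioned medium, each past the test and each of 1 sign on all 6 arrays. Their mean of -0.31 fell (adjusted p = 0.005), whereas the median of the features gave 0.56 (adjusted p = 0.0017). With Y27632 the same features were at -1.37 ± 0.79, 1.02 ± 1.52 and -0.18 ± 0.37, and the first fell and the second rose. The second changed sign with the dye there, at 2.36 in Cy3 and -0.32 in Cy5. As means of 6 arrays the features disagreed in direction within both experiments, and which transcripts each feature reads was not analysed here.

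Of the kinase that starts S phase and its cyclins, Cdk2 fell with conditioned medium (-0.59 ± 0.54, adjusted p = 0.00013), below 0 on 6 of 6 arrays but at -1.06 in Cy3 and -0.12 in Cy5. With Y27632 its 2 features went opposite ways, at -0.75 and 0.39, and the gene did not pass (adjusted p = 0.15). The feature at 0.39 averaged -0.08 in Cy3 and 0.85 in Cy5. Ccne1, cyclin E1, stood at -0.10 ± 0.17 with conditioned medium, not past the test (adjusted p = 0.24), with 0.13 as its highest array. It rose with Y27632, where its lowest, median and highest arrays were at 0.41, 0.48 and 0.71 (mean 0.50 ± 0.11, adjusted p = 0.0019). The arrays of the treatments did not overlap for Ccne1 as a gene mean. The rise came from 1 feature, at 0.94 (1.52 in Cy3 and 0.36 in Cy5), while the other was at 0.07, not past the test, with -0.62 in Cy3 and 0.76 in Cy5. Ccne2, cyclin E2, rose with conditioned medium (0.67 ± 1.37, adjusted p = 9.6e-05) and fell with Y27632 (-1.18 ± 1.74, adjusted p = 0.0003), yet its sign followed the dye. The Cy5 arrays averaged 1.91 with the medium and 0.38 with Y27632, and the Cy3 arrays -0.57 and -2.74. E2f1, a transcription factor that turns on S phase genes, split by dye as well. With conditioned medium it was at 0.71 in Cy3 and -0.68 in Cy5, with a mean of 0.01 (adjusted p = 0.87). With Y27632 it was at 2.00 in Cy3 and -0.54 in Cy5, with a mean of 0.73 that passed (adjusted p = 0.00076).

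**Figure D2:**
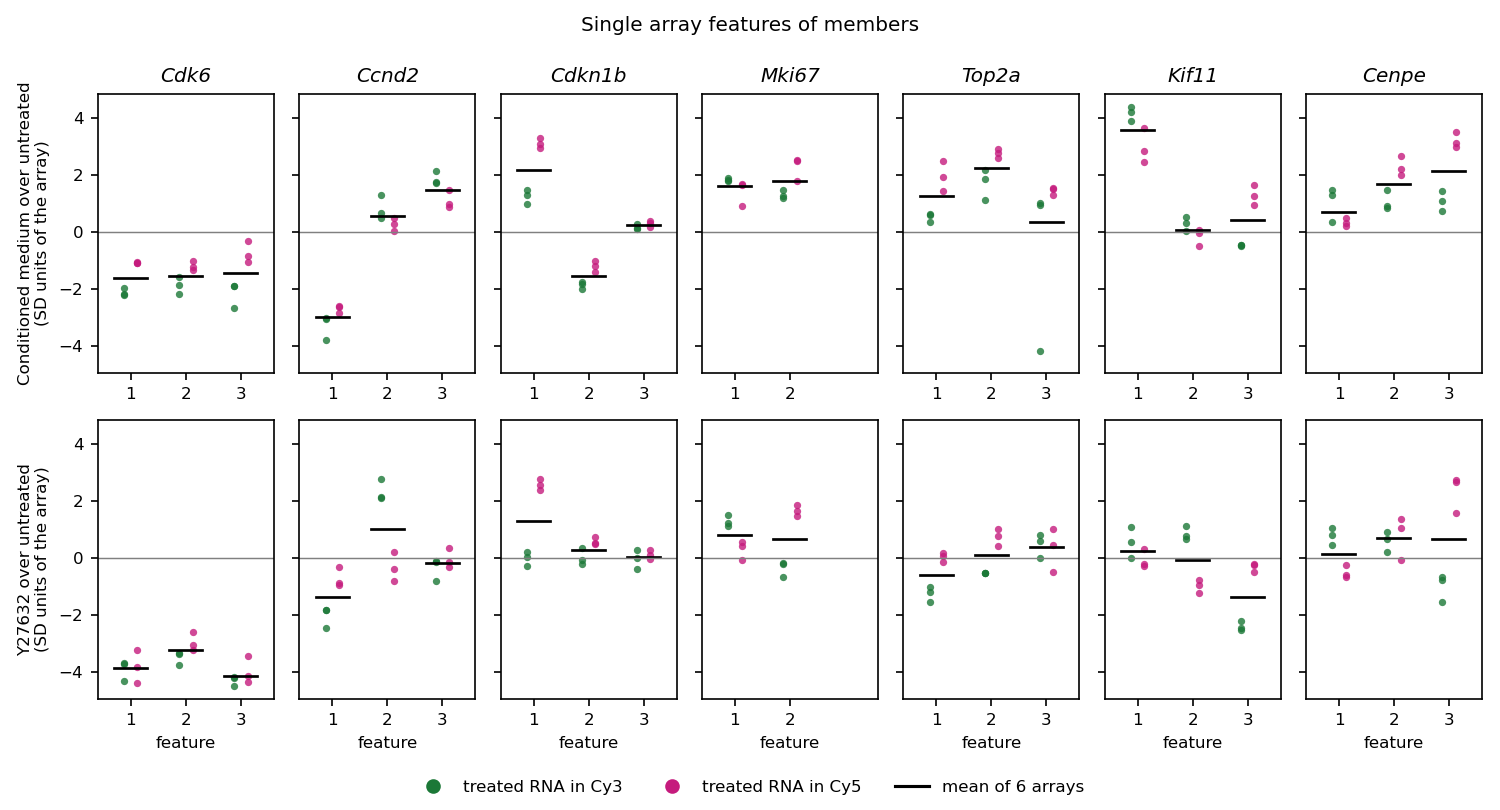
Values of each array feature (x axis, feature of the gene) of 7 genes on each array (y axis, SD units of the array), treated over untreated, with conditioned medium in the upper panels and Y27632 in the lower; points are arrays, coloured by the dye of the treated RNA, and bars are means of 6 arrays. The 3 features of Cdk6 lie together below 0, those of Ccnd2 and Cdkn1b lie on both sides of 0 with conditioned medium, and 1 array of the third Top2a feature is at -4.16.

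Among the CDK inhibitors, Cdkn1c (p57), which blocks cyclin E and A kinases, fell with both treatments. With conditioned medium its lowest, median and highest arrays were at -1.64, -1.09 and -0.40, a mean of -1.03 ± 0.56 (adjusted p = 4.7e-06), and with Y27632 at -1.01, -0.38 and 0.04, a mean of -0.47 ± 0.38 (adjusted p = 0.009). All 6 arrays were below 0 with the medium and 5 of 6 with Y27632. Cdkn1b (p27) rose as a gene mean with both, at 0.30 ± 0.49 (adjusted p = 0.0022) and 0.56 ± 0.62 (adjusted p = 0.0019), but with the medium its 3 features were at 2.20 ± 1.04, -1.53 ± 0.39 and 0.24 ± 0.11, all past the test. Each of these features kept 1 sign on all 6 medium arrays, so the direction of p27 mRNA with conditioned medium depended on the feature. With Y27632 only the first of them passed (1.3 ± 1.43), and it averaged 2.59 in Cy5 and 0.00 in Cy3. Cdkn1a (p21), a target of p53, was at 0.00 ± 0.24 with the medium (adjusted p = 0.99) and -0.25 ± 0.38 with Y27632 (adjusted p = 0.19), and Cdkn2c (p18), an inhibitor of Cdk4 and Cdk6, was at 0.13 ± 0.17 (adjusted p = 0.17) and 0.35 ± 0.33 (adjusted p = 0.058).

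The S phase genes changed by less than 1 SD unit as gene means. With conditioned medium 4 of 11 rose (36.4%) and 2 fell (18.2%), beside 27.6% and 36.7% of all genes, and with Y27632 1 rose (9.09%) and 4 fell (36.4%), beside 20.5% and 19.5%. Rrm2, a subunit of ribonucleotide reductase, which makes deoxynucleotides, rose with the medium, where its lowest, median and highest arrays were at -0.04, 0.40 and 1.20 (mean 0.54 ± 0.48, adjusted p = 0.0027). It fell with Y27632, where they were at -1.35, -0.52 and 0.02 (mean -0.60 ± 0.53, adjusted p = 0.0034). In each experiment 5 of 6 arrays had the sign of the mean. Mcm2, a subunit of the replicative helicase, was above 0 on 6 of 6 medium arrays (0.47 ± 0.31, adjusted p = 0.00042), and fell with Y27632 (-0.35 ± 0.54, adjusted p = 0.019) through the Cy5 arrays, which averaged -0.81 against 0.12 in Cy3.

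Of the other helicase subunits, Mcm3 rose with the medium (0.28 ± 0.19, adjusted p = 0.014), with features at 0.46, which passed, and 0.11, which did not. The first was at -0.15 in Cy3 and 1.08 in Cy5, and the second at 0.83 in Cy3 and -0.61 in Cy5. Mcm6 passed in both experiments (0.55 and 0.42, adjusted p = 0.00044 and 0.013) with opposite signs between the dyes for Y27632, at 1.35 in Cy3 and -0.51 in Cy5. Mcm4, Mcm5 and Mcm7 did not pass with either treatment, with means from -0.10 to 0.34. With the medium the 2 features of Mcm4 stood at 0.93 ± 0.23 and -0.87 ± 1.95, and both passed. The second changed sign with the dye, at 0.9 in Cy3 and -2.65 in Cy5. Tyms, thymidylate synthase, fell with both treatments and was below 0 on all 12 arrays as a gene mean. It was at -0.21 ± 0.18 with the medium (adjusted p = 0.017) and -0.67 ± 0.28 with Y27632 (adjusted p = 0.00061). Its features were at -0.35, -0.13 and -0.15 with the medium, of which only the first passed, and at -0.52, -1.37 and -0.12 with Y27632. Pcna, the sliding clamp of the polymerase, fell with the medium (-0.39 ± 0.34, adjusted p = 0.01, 6 of 6 arrays) and was at 0.01 ± 0.57 with Y27632 (adjusted p = 0.97). Cdc6, which loads the helicase, was at -0.16 ± 0.26 with the medium (adjusted p = 0.065) and fell with Y27632 on 6 of 6 arrays (-0.72 ± 0.19, adjusted p = 0.00069), through 1 feature at -1.29 beside -0.15 at the other, which did not pass. Rrm1, the large subunit of ribonucleotide reductase, was at 0.14 ± 0.21 and -0.20 ± 0.40 and passed in neither.

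The genes of G2 and mitosis held the largest rises. Mki67, which encodes the proliferation marker Ki-67 that coats mitotic chromosomes, was above 0 on all 12 arrays as a gene mean. With conditioned medium its lowest, median and highest arrays were at 1.54, 1.69 and 2.13, a mean of 1.72 ± 0.21 (adjusted p = 3.1e-07). With Y27632 they were at 0.23, 0.74 and 1.24, a mean of 0.74 ± 0.35 (adjusted p = 0.00074). The 2 ranges of the gene mean did not overlap, but those of each single feature did. The lowest medium and highest Y27632 arrays were at 0.91 and 1.53 for the first and 1.22 and 1.89 for the second. Both features rose in both experiments, at 1.64 and 1.81 with the medium and 0.81 and 0.67 with Y27632. The second split by dye with Y27632, at -0.35 in Cy3 and 1.68 in Cy5. Cenpe, a kinetochore motor, rose as well, with 0.67, 1.65 and 2.24 on its lowest, median and highest medium arrays (mean 1.52 ± 0.57, adjusted p = 4.8e-06) and -0.16, 0.37 and 1.18 on its Y27632 arrays (mean 0.51 ± 0.55, adjusted p = 0.022). The Y27632 call was lost without any 1 of replicates 1, 2, 4 and 6 (adjusted p from 0.058 to 0.074). All 3 of its features rose with the medium, at 0.71, 1.70 and 2.16.

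Kif11, the motor that separates the spindle poles, had the tightest values of the large rises as a gene mean, with 1.22, 1.36 and 1.54 on its lowest, median and highest medium arrays (mean 1.36 ± 0.12, adjusted p = 6.8e-07). That mean came from unequal features, at 3.59 ± 0.78, 0.08 ± 0.34 and 0.42 ± 0.99. The second did not pass (adjusted p = 0.52), and the third averaged -0.46 in Cy3 and 1.3 in Cy5. Taken as the median of its features, Kif11 was at 0.8 with the medium (adjusted p = 0.00011). With Y27632 Kif11 fell slightly (-0.38 ± 0.11, adjusted p = 0.0074, below 0 on 6 of 6 arrays), through the third feature at -1.34, beside 0.27 and -0.05 at the others. The median of the features was 0.09 with Y27632 (adjusted p = 0.6), so this fall was lost there. Top2a, the topoisomerase that untangles chromosomes, rose with the medium (1.29 ± 1.16, adjusted p = 0.0018), with arrays from -0.89 to 2.29 and a median of 1.58. Its lowest array was replicate 3, where the third feature read -4.16 while its 5 other arrays read 0.95 to 1.56, and without that replicate Top2a was at 1.64 (adjusted p = 3.4e-06). With Y27632 it was at -0.02 ± 0.46 (adjusted p = 0.87).

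The promoters of these genes are shown because genes of this class are known to share binding sites for cell cycle regulators. The stretches are the 200 bases before the RefSeq start of each gene on GRCm38.p6, read 5′ to 3′ on the strand of the gene, with Mki67 at chr7:135716380-135716579 (minus strand), Top2a at chr11:99024190-99024389 (minus), Kif11 at chr19:37376182-37376381 (plus) and Cenpe at chr3:135212363-135212562 (plus). That of Cdk6, at chr5:3343693-3343892 (plus), is shown beside them as the gene with the lowest mean of all 43, that with Y27632. Capitals mark matches, on either strand, to TTTGAA (the cell cycle genes homology region, CHR), to CCAAT, and to TTCCCGC or TTGGCGC, letters of E2F sites. CCAAT read on the other strand is ATTGG, whose last letters are also the first of TTGGCGC.
Mki67: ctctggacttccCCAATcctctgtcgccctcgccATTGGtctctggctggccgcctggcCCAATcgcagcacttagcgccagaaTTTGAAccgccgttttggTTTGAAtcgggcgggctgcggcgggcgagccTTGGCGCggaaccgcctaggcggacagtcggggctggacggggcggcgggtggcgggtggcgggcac
Top2a: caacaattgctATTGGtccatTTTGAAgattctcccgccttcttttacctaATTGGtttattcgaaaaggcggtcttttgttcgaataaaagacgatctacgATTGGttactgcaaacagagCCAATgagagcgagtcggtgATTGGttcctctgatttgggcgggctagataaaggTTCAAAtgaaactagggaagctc
Kif11: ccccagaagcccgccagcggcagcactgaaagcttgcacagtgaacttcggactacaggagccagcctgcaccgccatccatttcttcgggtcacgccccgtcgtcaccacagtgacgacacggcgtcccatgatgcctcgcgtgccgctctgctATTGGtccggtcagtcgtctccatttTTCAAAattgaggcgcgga
Cenpe: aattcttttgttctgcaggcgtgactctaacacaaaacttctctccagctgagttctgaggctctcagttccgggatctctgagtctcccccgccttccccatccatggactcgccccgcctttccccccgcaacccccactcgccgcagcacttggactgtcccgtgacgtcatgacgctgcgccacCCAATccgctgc
Cdk6: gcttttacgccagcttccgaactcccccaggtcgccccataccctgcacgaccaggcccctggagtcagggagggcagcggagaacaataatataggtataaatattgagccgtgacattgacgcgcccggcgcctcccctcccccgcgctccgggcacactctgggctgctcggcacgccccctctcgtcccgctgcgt

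Promoters of this length were matched for 33 of the 43 genes. A CCAAT match stood in 13 of 14 promoters of the G2 and mitosis genes (92.9%), where 32.7% of the promoters of 27025 genes held one. A TTTGAA match stood in 6 of these 14 (42.9%), beside 14.4% of all, and the same 6 (Mki67, Top2a, Ccnb2, Cdk1, Cdc20 and Kif11) held both, beside 4.3% of all. Of these 6, Mki67, Top2a and Kif11 rose with conditioned medium, and Ccnb2, Cdk1 and Cdc20 did not pass. The E2F letters stood in 5 of 10 S phase promoters (50%), beside 5.6% of all, and in 2 of the 14 promoters of G2 and mitosis genes, those of Mki67 and Cdk1. Cdk6 and Cdk4 held none of these matches. A match describes the letters alone and shows no binding.

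Of the remaining genes of G2 and mitosis, Bub1b, of a spindle checkpoint protein, and Ccna2, cyclin A2, stood above 0 on all medium arrays. Bub1b had 0.44, 0.94 and 1.09 on its lowest, median and highest medium arrays (mean 0.89 ± 0.24, adjusted p = 1.8e-05) and was at -0.01 ± 0.57 with Y27632 (adjusted p = 0.98). Ccna2 had 0.36, 0.85 and 1.29 (mean 0.83 ± 0.32, adjusted p = 0.00028), and with Y27632 0.30 ± 0.13 (adjusted p = 0.027), above 0 on 6 of 6 arrays in each experiment. The Y27632 call of Ccna2 was lost without any 1 of replicates 2, 3, 4 and 5 (adjusted p from 0.053 to 0.089). Smaller rises with the medium were those of Foxm1, Aurkb and Bub1, with adjusted p from 0.0058 to 0.035. Foxm1, a transcription factor of G2 genes, was at 0.39 ± 0.25 (6 of 6 arrays above 0). Aurkb, a kinase of the centromere and midbody, was at 0.36 ± 0.38 (5 of 6). Bub1, a checkpoint kinase, was at 0.35 ± 0.36 (5 of 6). The rise of Bub1 was lost without any 1 of replicates 2 to 6 (adjusted p from 0.054 to 0.12).

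Cenpf, a kinetochore protein, had features that went opposite ways with the medium, at 0.69 and -0.43, and did not pass as a gene (0.13, adjusted p = 0.15). The feature at -0.43 averaged -1.15 in Cy3 and 0.3 in Cy5. With Y27632 it rose on 6 of 6 arrays (0.61 ± 0.35, adjusted p = 0.0031), with features at 0.63 and 0.59 that both passed. The second of them split by dye, at -0.30 in Cy3 and 1.48 in Cy5. Tpx2, a spindle assembly factor, fell with Y27632 on 5 of 6 arrays (-0.44 ± 0.52, adjusted p = 0.014). Kif23, a motor of cytokinesis, Cdk1, the mitotic kinase, and Aurkb passed with Y27632 at -0.39, -0.36 and 0.33 (adjusted p = 0.0085, 0.018 and 0.027), but each had the opposite sign in 1 dye orientation. Ccnb2, Cdc20, Plk1, Aurka, Kif20a and Birc5 passed in neither experiment, with means from -0.27 to 0.43. Among them Birc5, Aurka, Cdc20 and Ccnb2 changed sign with the dye in both experiments, for Birc5 1.02 in Cy3 and -0.90 in Cy5 with the medium.

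**Figure D3:**
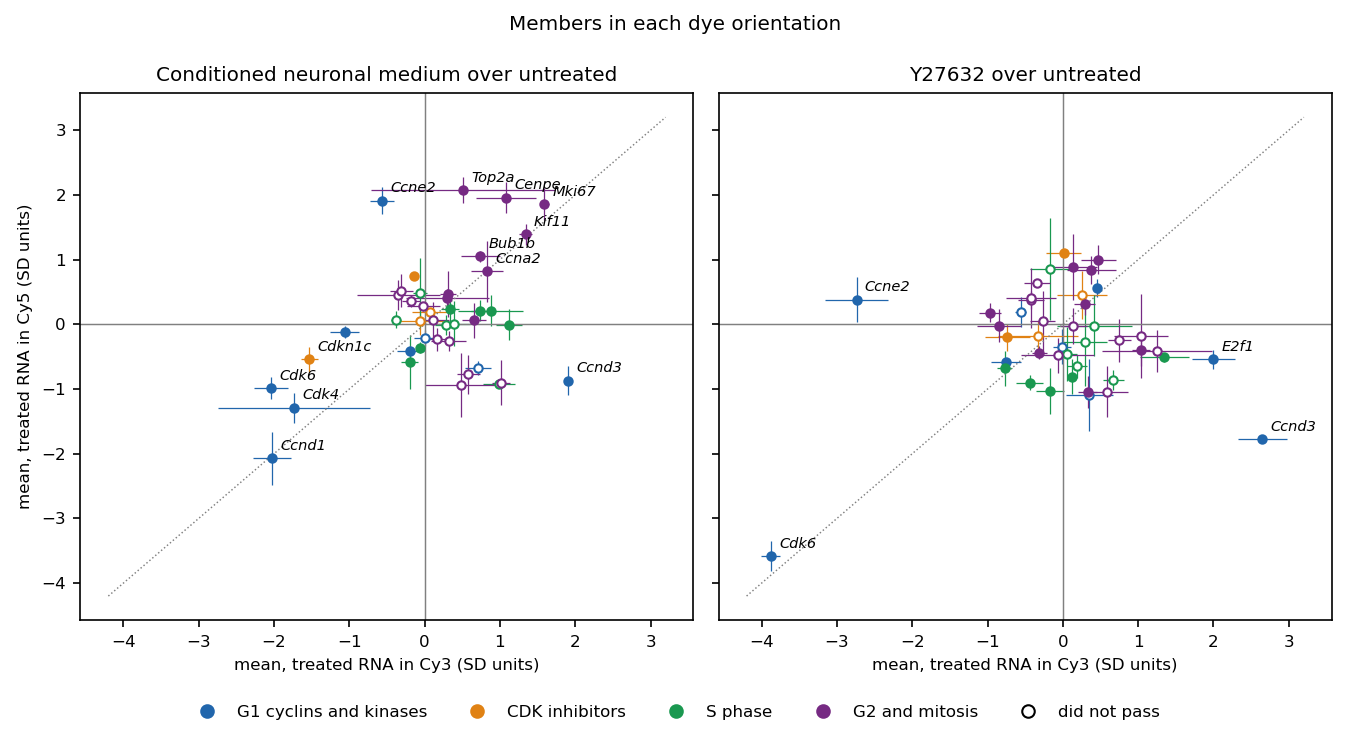
Mean of the 3 arrays whose treated RNA carried Cy5 (y axis) against the mean of the 3 with it in Cy3 (x axis), in SD units, for each gene with conditioned medium (left) and Y27632 (right); bars are SDs, colours are classes, filled symbols passed the test and the dotted line marks equal values. With the medium, Ccnd1 lies on the line at the lower left and Cdk6 off it (-2.04 in Cy3 and -0.99 in Cy5), Cdk6 lies near it with Y27632 (-3.88 and -3.58), and Ccnd3 lies far from it in both panels.

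Many values differed between the dye orientations. Over all features, r between arrays that shared their dye orientation was 0.859 to 0.890 with the medium and 0.731 to 0.809 with Y27632, and r between arrays that did not was 0.249 to 0.296 and -0.262 to -0.120. Means had the same sign in both orientations for 23 of 43 cell cycle genes with the medium (53.5%), beside 54.8% of all genes, and for 18 of 43 with Y27632 (41.9%), beside 42.7%. Of the genes that passed, 20 of 24 with the medium and 14 of 22 with Y27632 had 1 sign in both orientations. The exceptions were Ccne2, Cdkn1b, Ccnd3 and Mcm6 with the medium, and Mcm2, Cdk1, Ccnd3, Ccne2, E2f1, Mcm6, Aurkb and Kif23 with Y27632. A pass itself favours 1 sign in both orientations, and the share among all genes that passed was not counted. When the dye effect was left in the spread, 12 of the 24 calls with the medium were kept, the rises of Mki67, Top2a, Kif11, Cenpe, Bub1b, Ccna2, Mcm2 and Foxm1 and the falls of Ccnd1, Cdk4, Cdk6 and Cdkn1c. With Y27632 7 of 22 were kept, the rises of Mki67, Ccne1 and Cenpf and the falls of Cdk6, Cdk4, Tyms and Cdc6. The share of calls kept among all genes was not counted.

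**Figure D4:**
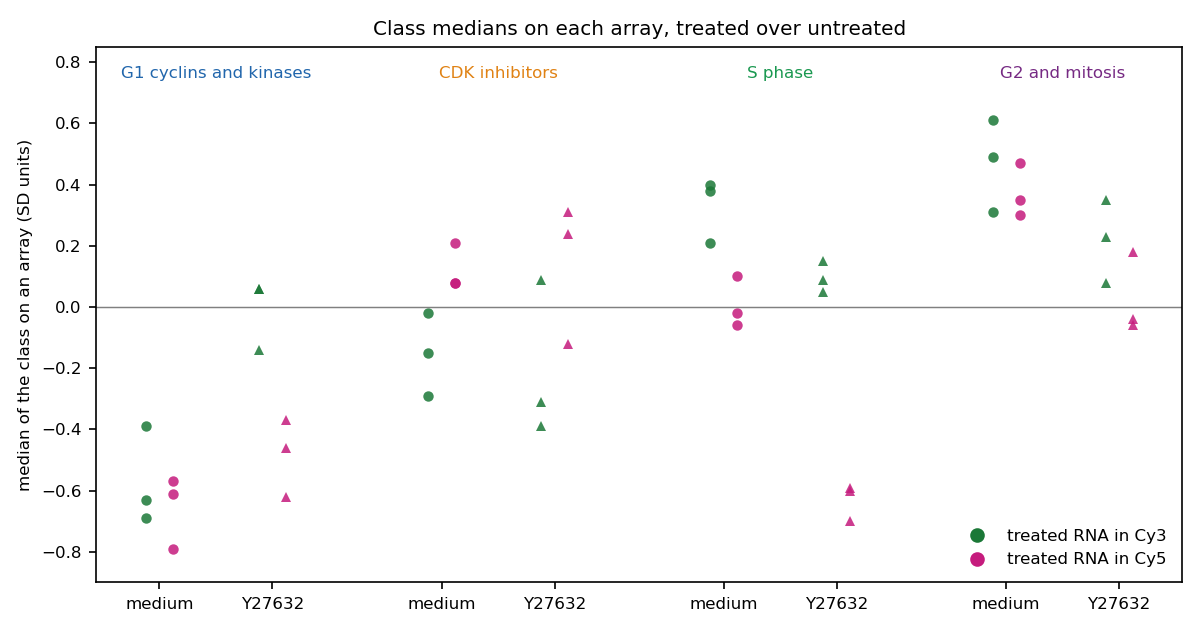
Median of each class of genes on each array (y axis, SD units), treated over untreated, for conditioned medium (circles) and Y27632 (triangles), coloured by the dye of the treated RNA. The G2 and mitosis median lies between 0.30 and 0.61 on the 6 medium arrays and the G1 median between -0.79 and -0.39, whereas the S phase median with Y27632 lies at -0.70 to -0.59 in Cy5 and 0.05 to 0.15 in Cy3.

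Single features told much the same in number. Of the 72, 29 rose and 15 fell with the medium, beside 27.8% and 32.7% of all features, and 15 rose and 22 fell with Y27632, beside 19.2% and 17.6%. Among the 21 genes with several features, the features had 1 sign for 12 genes with the medium and 14 with Y27632. For this count and those that follow, the matching shares of all genes with several features were not counted. Every feature rose for Mki67, Cenpe and Ccne2 with the medium and for Mki67, Cenpf and E2f1 with Y27632, and every feature fell for Cdk6 and Cdk2 with the medium and for Cdk6 and Ccne2 with Y27632. Features passed in opposite directions for Ccnd2, Cdk1, Cdkn1b, Cenpf and Mcm4 with the medium and for Ccnd2 and Cdk2 with Y27632. With the medium, both features of Cdk1 and the second features of Cenpf and Mcm4 changed sign with the dye. With Y27632 the second features of Ccnd2 and Cdk2 did so.

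The difference between the treatments was then tested on all 12 arrays, conditioned medium minus Y27632. It was higher with the medium for 16 of 43 genes (37.2%), beside 22.5% of all genes, and lower for 7 (16.3%), beside 27.6%. By class, 9 of 19 genes of G2 and mitosis were higher and 1 lower, 5 of 11 S phase genes were higher and 0 lower, and of the 9 G1 genes 2 were higher and 5 lower. The SD unit is set on each array by its own spread, and the difference takes the units of both experiments as equal.

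Cdk6 differed most, by 2.21 ± 0.12 (SE, adjusted p = 2.5e-08), with -1.51 in conditioned medium and -3.73 with Y27632. Kif11 differed by 1.74 ± 0.10 (adjusted p = 3e-08) and Top2a by 1.31 ± 0.30 (adjusted p = 0.0032), each up with the medium and near or below 0 with Y27632. Ccnd1, which did not pass with Y27632, was lower with the medium, by -1.68 ± 0.20 (adjusted p = 2.3e-05). In these units the fall of Cdk4 was deeper with the medium, by -0.84 ± 0.26 (adjusted p = 0.017), a call that was lost without moderation. Rrm2 (1.15 ± 0.17), Cenpe (1.01 ± 0.19), Mki67 (0.99 ± 0.12), Bub1b (0.90 ± 0.17) and Mcm2 (0.82 ± 0.11) were higher with the medium, with adjusted p from 3.1e-05 to 0.00084. Ccne2 differed by 1.85 ± 0.16 (adjusted p = 1.4e-06), and here the dyes gave the same sign, with the medium above Y27632 in Cy5 (1.91 and 0.38) and in Cy3 (-0.57 and -2.74). Of the 23 differences that passed, 22 had 1 sign in both orientations, Cdk1 being the exception. Without the dye term 12 of the 23 were lost, among them those of Ccne2, Top2a and Cdk4. Tested within each orientation, on 3 arrays against 3, 16 of 23 passed in Cy3 and 16 in Cy5. The 9 that passed in both were Ccnd1, Ccne1, Ccne2, Cdk6, Rrm2, Mcm2, Mki67, Kif11 and Cenpe, whereas Top2a and Cdk4 did not pass in Cy3 (adjusted p = 0.18 and 0.11) nor Bub1b in Cy5 (adjusted p = 0.061). The 23 were picked for passing on these same arrays, which favours agreement between orientations, so these counts are no separate test. The matching shares of all genes were not counted. Mcm5, Plk1 and Aurkb differed by 0.00 ± 0.20, 0.04 ± 0.14 and 0.03 ± 0.13 (SE), with adjusted p from 0.84 to 0.99.

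**Figure D5:**
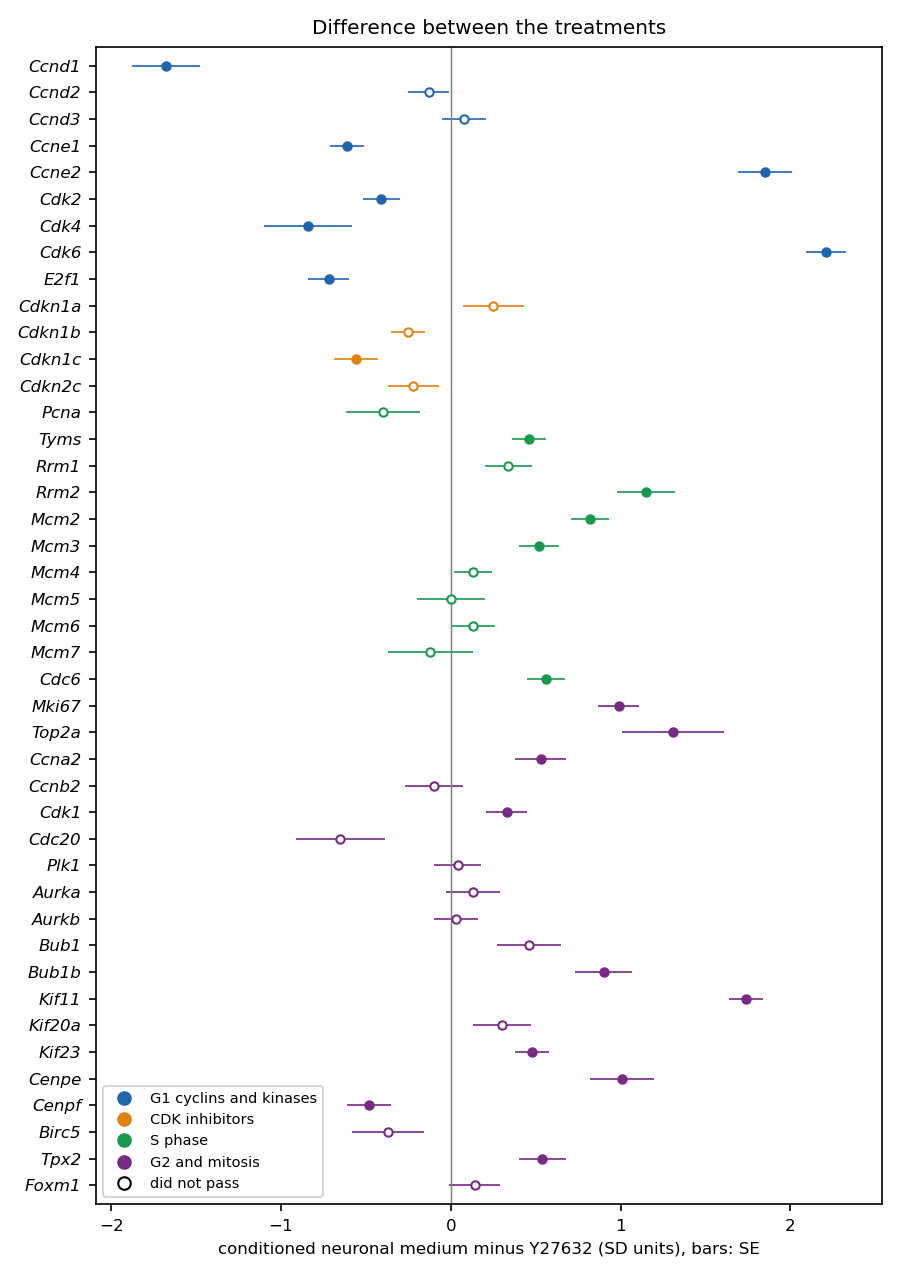
Conditioned medium minus Y27632 (x axis, SD units) for each of the 43 genes, with SEs as bars, classes as colours and filled symbols for differences that passed. Cdk6 lies farthest right at 2.21, followed by Ccne2 at 1.85 and Kif11 at 1.74, and Ccnd1 lies farthest left at -1.68.

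Set side by side, 7 genes passed upward in both experiments (Ccnd3, Cdkn1b, Mcm6, Mki67, Ccna2, Aurkb and Cenpe) and 4 downward in both (Cdk4, Cdk6, Cdkn1c and Tyms). Ccne2, Rrm2, Mcm2 and Kif11 passed upward with the medium and downward with Y27632, and 12 genes passed in neither. The matching shares of all genes were not counted. Among the genes named here, Ccnd3, Mcm6 and Ccne2 changed sign with the dye in both experiments, Cdkn1b with the medium, and Aurkb and Mcm2 with Y27632. Over all features, arrays of different experiments correlated at r of 0.362 to 0.43 with the same dye orientation and -0.358 to -0.148 with opposite ones.

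Other genes of the same pathways were taken from 3 further lists. Of 46 further mitosis genes, 21 rose (45.7%) and 11 fell (23.9%) with conditioned medium, beside 27.6% and 36.7% of all genes. With Y27632 4 rose (8.7%) and 20 fell (43.5%), beside 20.5% and 19.5%, and the medians were 0.13 with the medium and -0.22 with Y27632. With the medium, Hmmr, a spindle protein (1.77 ± 0.57), Nusap1, which bundles spindle microtubules (1.40 ± 0.18), and Smc4, a condensin subunit (1.25 ± 0.25), rose on 6 of 6 arrays, with adjusted p from 4.8e-07 to 1.1e-06. With Y27632, Anln, the scaffold anillin of the cleavage furrow, fell, with arrays from -4.07 to -1.33 (mean -2.80 ± 1.27, adjusted p = 4.8e-06) and both features down, at -1.93 and -3.67. Ect2, a regulator of cytokinesis, fell as a gene mean (-1.26 ± 0.84, adjusted p = 4.2e-05) through 1 of its features, at -2.59 beside 0.07. Ckap2, a spindle protein, fell (-1.02 ± 1.57, adjusted p = 0.00016), but averaged -2.44 in Cy3 and 0.41 in Cy5.

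Of 40 further replication genes, 10 rose (25.0%) and 14 fell (35.0%) with the medium, shares near those of all genes. With Y27632 5 rose (12.5%) and 16 fell (40.0%), beside 20.5% and 19.5% of all genes. Cdc7, the kinase that fires origins, rose with the medium (1.03 ± 0.36, adjusted p = 1.7e-06, features 1.15, 1.15 and 0.79). Subunits of the origin recognition complex fell with Y27632, namely Orc1 at -1.24 ± 0.68 (adjusted p = 6.5e-05) and Orc4 at -1.04 ± 0.62 (adjusted p = 0.00069). Both were below 0 on 6 of 6 arrays. Of 34 further G1 regulators, 16 rose (47.1%) and 13 fell (38.2%) with the medium, the falls near the 36.7% of all genes, and 7 rose (20.6%) and 8 fell (23.5%) with Y27632, near the shares of all genes. Cdkn2b (p15), an inhibitor of Cdk4 and Cdk6, fell with the medium, with arrays from -4.67 to -3.40 (mean -3.97 ± 0.57, adjusted p = 8.4e-09), and rose with Y27632, with arrays from 1.06 to 1.89 (mean 1.38 ± 0.29, adjusted p = 4.1e-05). Gadd45b, a stress-induced growth arrest gene, moved likewise, at -3.44 ± 0.39 with the medium and 1.57 ± 0.24 with Y27632 (adjusted p = 8.4e-09 and 3e-05). The arrays of the 2 treatments lay on opposite sides of 0 for both genes. Gas1, a growth arrest gene, rose with the medium (2.50 ± 0.77, adjusted p = 1.4e-07), and Chek1, a checkpoint kinase, fell with Y27632 (-1.38 ± 0.88, adjusted p = 1.7e-05).

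Some markers of other neural cells passed too, as ratios that give no level. Of all genes, 27.6% rose and 36.7% fell with the medium, and 20.5% and 19.5% with Y27632. Of 18 neuron markers, 10 rose (55.6%) and 5 fell (27.8%) with conditioned medium and 2 rose (11.1%) and 7 fell (38.9%) with Y27632. Of 8 astrocyte markers, 2 rose (25.0%) and 4 fell with the medium and 5 rose (62.5%) and 0 fell with Y27632. Of 6 microglia markers, 3 rose and 0 fell with the medium, and 1 rose and 2 fell with Y27632. Gfap, an astrocyte filament, was at -2.94 ± 0.72 with the medium, and Gap43, a growth cone protein of neurons, at -2.78 ± 0.33 with Y27632. Nefl, a neuronal filament, was at 3.08 ± 0.24 with the medium, from features at -0.25 and 6.41, and at -2.58 ± 0.35 with Y27632. The part of other cells in the changes of the cell cycle genes was not tested, nor was that of the RNA amplification, which used PCR.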

How the data were processed

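The authors deposited scores: they extracted the intensities of Agilent 44 K mouse arrays, normalized them by loess regression and took saturated features from a scan at low gain. Each array of these deposited scores has an SD of 1.0, and the scale, centring and direction are not given in the sources used here. Amplified cDNA was hybridised, so a ratio may hold amplification bias.

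Of 44290 features, 41230 had values on all arrays and 3060 had none. Gene names came from the platform annotation, in which 31906 of 32042 entries with 1 gene matched by gene ID. Of the measured features 31700 had 1 gene, 47 had several and 9483 had none listed, and features with several genes were not named. Signs were reversed, and features averaged per gene.

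Each experiment was fitted in limma 3.58.1 (R 4.3.3) as the mean ratio plus a dye effect, and the difference between the treatments on all 12 arrays with a dye effect in each. The fit was tested on simulated data. Number of arrays limits the precision, and signal over background is unknown. The genes and lists were chosen with earlier results of these data known. All 43 genes are named, with up to 3 genes per further list and treatment, of the smallest adjusted p at 1 SD unit or more, and for the cell type markers the 2 with the smallest adjusted p per experiment. Promoters came from RefSeq (GRCm38.p6). Alternatives changed the dye term, centring, scaling, summary of features, moderation, size threshold and arrays, and are given in the closing section.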

Additional observations from a re-analysis of the deposited data

Results flagged for a closer look

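Of 186 sets of 6 arrays (genes and single features), 10 held an array whose gap to the nearest other array passed Dixon's critical share of the range. For independent values of 1 normal distribution chance gives about 1 in 20. That rate need not hold here, since arrays differed by dye and gene means share data with their features. With conditioned medium these were Top2a in replicate 3, at -4.16 for feature 3 and -0.89 as a gene mean, Ccnd2 in replicate 2 (feature 1, -3.78), Cdkn2c in replicate 1 (feature 1, -0.30), Mki67 in replicate 6 (feature 1, 0.91) and replicate 4 (gene mean, 2.13), and Foxm1 in replicate 5 (0.86). With Y27632 they were Ccne1 in replicate 2 (gene mean, 0.71), Cdk4 in replicate 5 (-0.98) and Cdk6 in replicate 2 (feature 3, -3.44).

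The effects of both treatments differed by the test of the difference itself for 23 genes, given as conditioned medium minus Y27632. Among the G1 genes and inhibitors it was -1.68 for Ccnd1, -0.61 for Ccne1, 1.85 for Ccne2, -0.41 for Cdk2, -0.84 for Cdk4, 2.21 for Cdk6, -0.72 for E2f1 and -0.56 for Cdkn1c. Among the S phase genes it was 0.46 for Tyms, 1.15 for Rrm2, 0.82 for Mcm2, 0.52 for Mcm3 and 0.56 for Cdc6. Among the genes of G2 and mitosis it was 0.99 for Mki67, 1.31 for Top2a, 0.53 for Ccna2, 0.33 for Cdk1, 0.90 for Bub1b, 1.74 for Kif11, 0.48 for Kif23, 1.01 for Cenpe, -0.48 for Cenpf and 0.54 for Tpx2.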

How the results depend on the processing

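Dropping the dye term left 8 genes higher and 4 lower with conditioned medium, 3 and 4 with Y27632 (1 lower by at least 1 SD unit), and 9 and 2 in the difference. In that fit the dye effect counts as spread. Without moderation, with centring on the median, with scaling by the median absolute deviation and with the median of features, all counts stayed within 1.5 times of those reported, except that 2 differences in place of 1 were lower by at least 1 with that scaling. Single directions turned with the median of features for Ccnd2 with the medium (0.56) and Kif11 with Y27632 (0.09), and the cause was not tested. With 0.5 in place of 1 SD unit, 10 genes rose with the medium, 6 rose and 6 fell with Y27632, and 13 differences were higher and 5 lower. With 2 SD units, 0 rose and 1 fell with the medium, 1 fell with Y27632, and 1 difference was higher and 0 lower. The same sign on all 6 arrays left 7 rises with the medium, and 4 rises and 5 falls with Y27632. Apart from that same-sign count, the matching shares of all genes under the alternatives of this section were not counted.

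Leaving out each array in turn gave 15 to 16 rises and 8 to 9 falls with the medium, 7 to 10 and 11 to 13 with Y27632, and 15 to 17 higher and 7 to 9 lower differences, of which 1 to 2 were lower by at least 1. With the medium Bub1 was lost without any 1 of 5 arrays (adjusted p up to 0.12). With Y27632 Cenpe, Ccna2 and Cdk1 were each lost without any 1 of 4 arrays (up to 0.074, 0.089 and 0.062), Aurkb without any 1 of 3 (up to 0.084) and Mcm2 without any 1 of 2 (0.057). The difference of Cdk1 was lost without any 1 of 8 (up to 0.073).

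Within 1 dye orientation, dye and treatment cannot be told apart for a single treatment, and the values are given with no test. With the medium, signs turned for Ccnd3 (-0.87) and Mcm6 (-0.01) in Cy5, and for Ccne2 (-0.57) and Cdkn1b (-0.14) in Cy3. With Y27632 they turned for Ccnd3 (-1.78), Ccne2 (0.38), E2f1 (-0.54), Mcm6 (-0.51), Aurkb (-0.39) and Kif23 (0.18) in Cy5, and for Mcm2 (0.12) and Cdk1 (0.33) in Cy3. The difference, in which a dye effect common to both experiments cancels, was tested within each orientation as an alternative chosen after seeing the data. In Cy3 11 genes were higher and 7 lower (2 by at least 1), in Cy5 14 and 4 (0 by at least 1), and Cdk1 turned in Cy3 (-0.16, adjusted p = 0.43).

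For arrays of the same replicate number in both experiments, the dye-adjusted deviations correlated with r from -0.033 to 0.082. Of the 6 medium arrays, 1 correlated best with its own number. The deviations are from the mean of each dye orientation, so RNA common to all arrays of 1 orientation cannot show in them. Whether same-numbered arrays shared RNA therefore stays unknown. With the replicate number as a block, 15 differences were higher and 7 lower, and Cdk1 was the 1 of 23 that no longer passed (adjusted p = 0.059). The number of arrays, and signal over background that is not known here, limit what small changes can show.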
